A study of Homo sapiens with 6 samples.

Results

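The interferon-stimulated and double-stranded RNA (dsRNA) sensing genes were followed in SKOV3 cells, a human ovarian cancer line, after siRNA knockdown of the lncRNA DNM3OS. The group was taken from a list of symbols, which gave 53 genes (the listed DDX58 and RIGI are names of 1 gene), out of 34834 genes with a transcript in the deposited quantification. The 3 samples here called the DNM3OS knockdown received 50 nM of a pooled siRNA against DNM3OS, and 3 control samples received 50 nM of non-targeting control siRNA. Both were delivered with Lipofectamine 2000, so that every sample, controls included, was transfected with siRNA and none was left untreated. The labels do not say whether the 3 samples of a group came from separate cultures, and the p-values measure only the spread between these samples.

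Interferons bind receptors at the cell surface (IFNAR1 and IFNAR2 for type I interferon), whose kinases JAK1 and TYK2 activate a transcription factor complex that includes STAT2 and IRF9. This complex binds the interferon-stimulated response element (ISRE) in promoters and raises the genes that carry it, many of which block viral replication. RIGI, IFIH1 and TLR3 sense dsRNA and, through adaptors such as MAVS, lead to interferon production. Synthetic siRNA is itself short dsRNA, and a transfection can raise these genes, which is why their level is of interest in an siRNA experiment.

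The ISRE core, searched as GAAA, any 2 bases and GAAA again on either strand, was looked for in a RefSeq promoter table (GRCh38.p14, 250 bases before and 50 bases after each start). Of the 53 genes, 42 were in the table, and 24 of these (57.1%) held the core in at least 1 promoter, compared with 3.57% of all 35116 promoters. The gamma-activated site core TTCNNNGAA was held by 11 of 42 (26.2%), compared with 7.66% of all promoters. For both cores the share of the 42 is per gene, counting any of its promoters. The share of all promoters is per promoter, so that the shares are not in the same unit. The promoters of 4 genes are printed 5′ to 3′ over the 250 bases before the start, because they belong to genes with few and with many counts, with and without the searched core. Capitals mark the ISRE cores. ISG15 is at chr1:1013247-1013496, IFIT1 at chr10:89392373-89392622, B2M at chr15:44711267-44711516 and XAF1, the first of its 2 in the table, at chr17:6755796-6756045, all on the plus strand.
ISG15: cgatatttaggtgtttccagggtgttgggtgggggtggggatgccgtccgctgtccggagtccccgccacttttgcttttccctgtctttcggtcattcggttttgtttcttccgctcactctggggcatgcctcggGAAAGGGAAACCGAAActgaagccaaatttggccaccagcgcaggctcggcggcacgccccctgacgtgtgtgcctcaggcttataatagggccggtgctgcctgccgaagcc
IFIT1: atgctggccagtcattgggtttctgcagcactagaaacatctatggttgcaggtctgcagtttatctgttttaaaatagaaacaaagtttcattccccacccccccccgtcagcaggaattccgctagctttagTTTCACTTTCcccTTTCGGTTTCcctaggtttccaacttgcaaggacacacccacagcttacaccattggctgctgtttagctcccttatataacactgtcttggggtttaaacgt
B2M: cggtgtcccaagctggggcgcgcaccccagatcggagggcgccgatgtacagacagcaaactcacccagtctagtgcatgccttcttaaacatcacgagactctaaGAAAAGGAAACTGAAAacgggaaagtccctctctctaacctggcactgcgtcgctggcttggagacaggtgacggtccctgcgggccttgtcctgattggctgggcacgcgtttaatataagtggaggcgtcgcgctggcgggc
XAF1: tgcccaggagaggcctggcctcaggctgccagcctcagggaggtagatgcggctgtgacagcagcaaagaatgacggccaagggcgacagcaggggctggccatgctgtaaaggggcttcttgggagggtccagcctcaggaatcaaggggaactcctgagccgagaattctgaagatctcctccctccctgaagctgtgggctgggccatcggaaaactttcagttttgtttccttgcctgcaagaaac
ISG15, IFIT1 and B2M each held 2 cores in this window, which overlap in ISG15 and in B2M, and the XAF1 window held none. The search finds only the spacing given above. The XAF1 promoter holds GAAACGAAA across the start, and the OAS1, RIGI and TRIM25 promoters hold it on either strand. These genes were counted as without a core. Genes with a core did not have the higher median count over the 6 samples summed. It was 113 estimated counts for the 24 genes with a core (range 1.503 to 971). For the 18 without a core it was 219 (range 0 to 1996). Genes outside the promoter table, such as TRIM22 (1509 counts) and MX2 (1261 counts), are not covered. The 18 include XAF1, OAS1, RIGI and TRIM25, so that the split is by the searched core and not by the ISRE.

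The samples held between 1523156 and 1868461 estimated counts on annotated genes, so that 3 counts in a sample corresponded to between 1.61 and 1.97 CPM (counts scaled to library size), and values near or below this level cover counting error only. The interferon genes together took up 0.132% to 0.219% of each library. No transcript annotated to DNM3OS was matched in the files, so that its level was not analysed here and the knockdown was not checked on these libraries. The libraries were strand-specific, and whether the quantification used the strand is not stated in the sources used here, so that reads from a gene and from the opposite strand cannot be told apart. PLLP alone held between 15.7% and 22.3% of the counts, the cytosolic ribosomal protein genes between 0.19% and 0.51%, and GAPDH between 27 and 414 counts, which is low for genes that every cell uses at a high level. Of 8 markers of ovarian carcinoma epithelium, KRT8 held at least 1195 counts in every sample and ERBB2 at least 311, while MUC1 was listed at 0 in all 6 and MUC16 and WT1 held at most 4. KRT18 held between 38 and 165, PAX8 between 26 and 46 and KRT7 between 4 and 12. Of 6 leukocyte markers, CD14 was at 0 and CD3E and MS4A1 held at most 2. PTPRC held between 91 and 148, CD68 between 40 and 67 and LYZ between 6 and 29. The 6 summed to between 94.6 and 126 CPM with overlapping groups. Of the fibroblast markers, DCN held between 29 and 58, COL1A1 between 10 and 19 and LUM at most 3. Of the endothelial markers, PECAM1 held between 24 and 62 and VWF at most 1. The values below are therefore the counts deposited under each gene's name, and what share of them, small or large, came from the opposite strand cannot be told apart.

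DNM3OS knockdown replicate 1 stood apart. The sum of 6 genes abundant in every cell (ACTB, GAPDH, EEF1A1, TPT1, RPLP0 and B2M, the last also an interferon gene) was 195 CPM in this sample, 760 and 717 CPM in knockdown replicates 2 and 3, and 1356, 487 and 1091 CPM in the controls. In the same sample the 6 genes XAF1, IFI6, IFI27, IFI35, IFI44 and IFI44L summed to 370 CPM, compared with 226 and 212 in knockdown replicates 2 and 3 and with 178, 257 and 185 in non-targeting replicates 1 to 3. The sample with the next lowest sum of abundant genes, non-targeting replicate 2, had the next highest sum of these interferon genes. Most of both sums was XAF1 alone (322 and 221 CPM), and IFI6 was lowest in knockdown replicate 1. The summed transcription factors, dsRNA sensors, IFIT, MX and restriction factor genes were also highest in knockdown replicate 1. The OAS and ISG15 conjugation genes were highest in knockdown replicate 3, and the receptors, ADP-ribosylation and antigen presentation genes in a control. The part of this library difference in the group comparison was not tested. Log2 fold changes that came clearly nearer to 0, or turned, without knockdown replicate 1 are also given without it.

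To test whether interferon tone differed between DNM3OS knockdown and control cells, all 11814 genes that passed a filter on low counts were compared with edgeR's exact test. Of the 53 interferon genes, 38 passed the filter, and 0 were lower and 0 higher in the knockdown at the threshold used, a change of 2-fold or more together with an adjusted p under 0.05. Of everything tested, 0.00846% were called lower (1 gene) and 0% higher. The smallest adjusted p among the 38 genes was 1. At an unadjusted p below 0.05 there was 1 of the 38, OAS1, compared with 2.92% of all tested genes. Of the 38 log2 fold changes, 27 were above and 11 below 0, with a median of 0.12. Over the 11814 genes, 5977 were above and 5837 below 0, with a median of 0.0042. For none of the 38 did the 3 knockdown samples all lie above or all below the controls, compared with 4.42% and 3.56% of all tested genes. The standard errors of the 38 log2 fold changes ran from 0.09 (DTX3L) to 1.03 (TAP1), with a median of 0.33, so that small changes were not detectable for most of them.

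**Figure D1:**
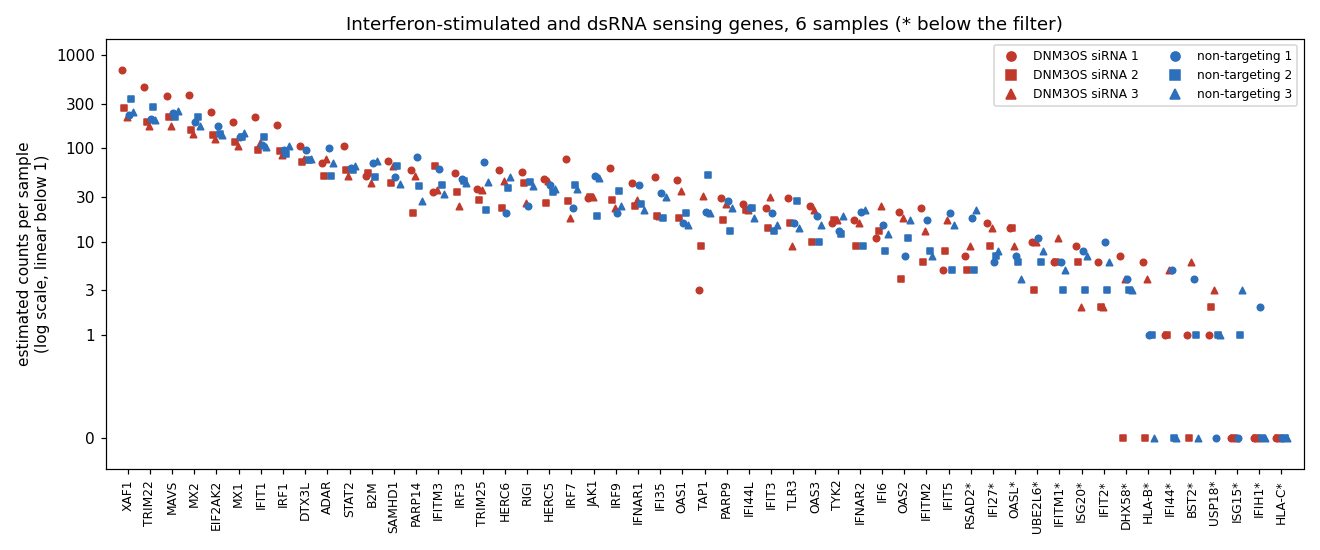
Estimated counts (log scale, linear below 1) of all 53 genes in each of the 6 samples, ordered by their total, with red for DNM3OS siRNA and blue for non-targeting siRNA. XAF1 lies highest, between 218 and 693 counts, ISG15, IFIH1 and HLA-C lie at or near 0, and the colors overlap for every gene that passed the filter.

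**Figure D2:**
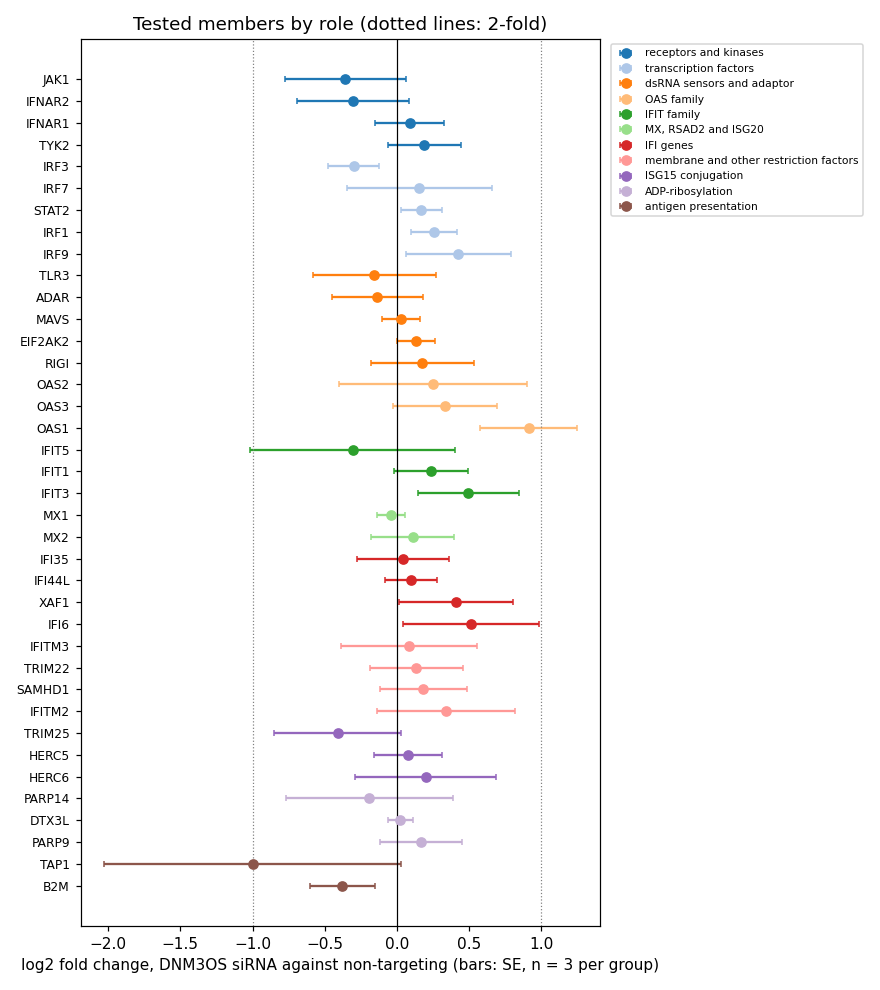
Log2 fold change of the 38 tested genes, DNM3OS siRNA against non-targeting, with bars of 1 SE (n = 3 per group) and colors for the role of each gene. OAS1 at 0.91 and TAP1 at -1.0 lie farthest from 0, and dotted lines mark a 2-fold change.

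Interferon transcripts themselves were hardly counted. Per the study's methods, all samples were taken at a single time after transfection, so that an earlier rise would not be seen here. Of 21 interferon ligand genes, 14 had 0 counts in all 6 samples, which allows up to 3 counts in each, and 0 passed the filter. IFNB1, the first interferon that most cells make after dsRNA is sensed, had 1, 0 and 0 counts in the knockdown and 0, 1 and 0 in the controls. IFNA1 had 10, 2 and 2 counts in the knockdown and 7, 6 and 6 in the controls. IFNW1 had 9 counts in each knockdown sample and 6, 5 and 6 in the controls. The values of IFNW1 did not overlap, but they lie within a few counts of each other. Among 10934 genes with a count but below the filter, 3.93% had all knockdown samples above the controls and 3.02% all below. Members of the interferon alpha family are near-identical in sequence, so that the split of counts between them is uncertain.

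Among the receptors and kinases, all 4 genes were tested. IFNAR1, a subunit of the type I interferon receptor, had 19.5, 16.2 and 19.7 CPM in the knockdown and 22.8, 16.4 and 12.9 in the controls. JAK1 had 13.5, 20.3 and 21.1 CPM in the knockdown and 28.5, 12.4 and 28.2 in the controls. For both genes the control samples spanned the knockdown samples, and the log2 fold changes were 0.09 (SE 0.24) and -0.36 (SE 0.42), or 0.05 and -0.15 without knockdown replicate 1. IFNAR2 and TYK2 changed by -0.31 (SE 0.39) and 0.19 (SE 0.25).

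Of the 5 transcription factors, IRF9, the DNA-binding subunit of the interferon-activated complex, had 28.8, 18.9 and 16.1 CPM in the knockdown and 11.4, 22.9 and 14.1 in the controls (log2 fold change 0.43, SE 0.37). IRF7, which amplifies interferon production, had 35.8, 18.2 and 12.6 CPM in the knockdown and 13.1, 26.2 and 21.8 in the controls. Knockdown replicate 1 was highest for both, and without it the log2 fold changes were 0.14 for IRF9 and -0.38 for IRF7. STAT2, the partner of IRF9, had 49.3, 39.2 and 35.8 CPM in the knockdown and 34.8, 38.6 and 38.2 in the controls (log2 fold change 0.17, SE 0.14, and 0.02 without knockdown replicate 1). IRF1, an activator of antigen presentation genes, had 83.7, 63.5 and 58.9 CPM in the knockdown and 54.1, 57.6 and 61.8 in the controls (log2 fold change 0.26, SE 0.16, and 0.09 without knockdown replicate 1). IRF3, the first factor to act downstream of MAVS, changed by -0.30 (SE 0.18). The groups overlapped for all 5.

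The dsRNA sensors were counted at very different levels. IFIH1, the sensor of long dsRNA, had 2 counts in non-targeting replicate 1 and 0 in every other sample, and DHX58, a regulator of both RIG-I-like sensors, had between 0 and 7. RIGI, which senses short dsRNA with 5′ phosphates, had 26.1, 29.0 and 18.2 CPM in the knockdown and 13.7, 28.8 and 22.9 in the controls. The RIGI values overlapped, with a log2 fold change of 0.18 (SE 0.36). MAVS, the adaptor that both sensors share, had 168, 146 and 123 CPM in the knockdown and 138, 144 and 148 in the controls (log2 fold change 0.03, SE 0.13, and -0.08 without knockdown replicate 1). EIF2AK2, the kinase PKR that stops translation on binding dsRNA, had 115, 95.2 and 89.1 CPM in the knockdown and 98.5, 93.6 and 81.8 in the controls (log2 fold change 0.13, SE 0.13, and 0.03 without knockdown replicate 1). These were among the more precise values of the group, and neither differed by more than its spread. ADAR, which edits dsRNA, and TLR3, the endosomal sensor, changed by -0.14 (SE 0.32) and -0.16 (SE 0.43).

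The OAS family, whose members make 2′-5′ oligoadenylates on binding dsRNA and so activate RNase L, held the tested gene with the highest log2 fold change. OAS1 (chr12:112905856-112933219, GRCh38) had 21.4, 12.2 and 24.6 CPM in the knockdown and 9.11, 13.1 and 8.82 in the controls. Knockdown replicates 1 and 3 lay above all controls, and replicate 2 lay below non-targeting replicate 2. The means were 19.4 ± 6.45 and 10.3 ± 2.39 CPM (SD, n = 3 each), a log2 fold change of 0.91 (SE 0.33) with an adjusted p of 1 by edgeR's exact test. An exact permutation test of the log2 CPM gave p = 0.2, where 3 samples against 3 cannot go below 0.1. Of the OAS1 counts, 88.8% were on the transcript ENST00000551241. OAS2 and OAS3 changed by 0.25 (SE 0.65) and 0.33 (SE 0.36), and by -0.12 and 0.06 without knockdown replicate 3. OASL, which lacks the synthetase activity, was below the filter with 14, 14 and 9 counts in the knockdown and 7, 6 and 4 in the controls. All 3 knockdown samples of OASL lay above the controls, and when no filter was used it changed by 1.10 on the log2 scale, with an adjusted p of 1 by edgeR's exact test. The summed CPM of the 4 OAS genes was 48.8, 31.1 and 58.9 in the knockdown and 27.9, 30.8 and 30 in the controls, so that knockdown replicate 2 was close to the controls.

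The IFIT proteins bind viral RNA that lacks host cap marks. IFIT1 had 102, 64.2 and 79.3 CPM in the knockdown and 61.5, 87.7 and 60.6 in the controls (log2 fold change 0.24, SE 0.26), and it became 0.05 without knockdown replicate 1. IFIT3 had 10.7, 9.46 and 21.1 CPM in the knockdown and 11.4, 8.51 and 8.82 in the controls. The rise of the mean rested on knockdown replicate 3: the log2 fold change was 0.49 (SE 0.35) with it and 0.08 without it. IFIT5 changed by -0.31 (SE 0.71), and IFIT2 was below the filter with 6, 2 and 2 counts in the knockdown and 10, 3 and 6 in the controls. Exons of both IFIT2 and IFIT3 overlap exons of LIPA on the other strand.

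The dynamin-like GTPases MX1 and MX2 trap viral particles. MX1 (chr21:41420020-41470071) had 89.3, 79.0 and 75.1 CPM in the knockdown and 76.3, 87.7 and 87.1 in the controls, with a log2 fold change of -0.04 (SE 0.10). MX2 had 175, 105 and 101 CPM in the knockdown and 110.5, 142 and 103 in the controls, and changed by 0.11 (SE 0.29), or by -0.19 without knockdown replicate 1. RSAD2, which encodes the antiviral enzyme viperin, was below the filter with 7, 5 and 9 counts in the knockdown and 18, 5 and 22 in the controls. ISG20, an exonuclease, was also below it, with at most 9 counts.

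XAF1 (chr17:6755447-6775647), which promotes apoptosis and is induced by interferon, held the most counts of the whole group. It had 322, 182 and 153 CPM in the knockdown and 132, 221 and 145 in the controls. Knockdown replicate 1 and non-targeting replicate 2 were highest, and these are the libraries in which the abundant genes were lowest. The log2 fold change was 0.41 (SE 0.39, adjusted p = 1 by edgeR's exact test) and 0.03 without knockdown replicate 1. TRIM22, an antiviral ubiquitin ligase, followed the same order of samples, with 209.8, 130 and 121 CPM in the knockdown and 118.5, 184 and 119 in the controls (log2 fold change 0.14, SE 0.32, and -0.15 without knockdown replicate 1). IFI6, a mitochondrial protein that delays apoptosis, had 5.12, 8.78 and 16.8 CPM in the knockdown and 8.54, 5.24 and 7.06 in the controls. Its log2 fold change of 0.51 (SE 0.47) turned to -0.04 without knockdown replicate 3. IFI27 was below the filter with 16, 9 and 14 counts in the knockdown and 6, 7 and 8 in the controls. The IFI27 samples did not overlap, with a log2 fold change of 0.87 and an adjusted p of 1 by edgeR's exact test without a filter. IFI44L and IFI35 changed by 0.10 (SE 0.18) and 0.04 (SE 0.32).

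**Figure D3:**
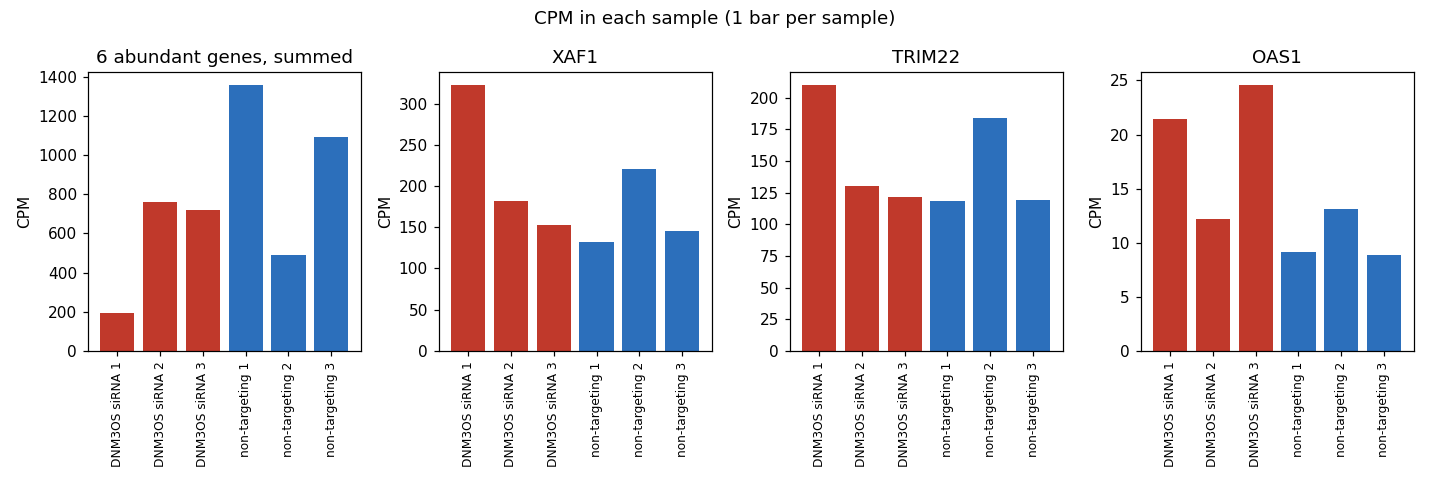
CPM in each sample (1 bar per sample, red for DNM3OS siRNA and blue for non-targeting) of 6 abundant genes summed and of XAF1, TRIM22 and OAS1. The abundant genes were lowest in knockdown replicate 1 (195 CPM), where XAF1 (322 CPM) and TRIM22 (209.8 CPM) were highest, while OAS1 was highest in knockdown replicate 3 (24.6 CPM).

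Knockdown replicate 1 was the highest of the 6 samples for 13 of the 38 tested genes, or 34.2%, compared with 28% of all tested genes. Without this sample the log2 fold changes were 0.0086 for ADAR, 0.13 for HERC6, -0.29 for IFI35, 0.14 for IFIT5 and 0.12 for OAS2. Knockdown replicate 3 was highest for a further 31.6% of the group, compared with 14.3% of all tested genes. Among the 15 genes below the filter, which held at most 22 counts in any sample, 2 (OASL and IFI27) had all knockdown samples above the controls and 0 had all below. Of 10934 genes with a count but below the filter, 3.93% had all knockdown samples above and 3.02% all below. IFIT2, RSAD2, DHX58 and UBE2L6 were among the others, with overlapping groups.

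Of the membrane and restriction factors, IFITM3, which blocks the entry of viruses from endosomes, had 15.8, 43.9 and 25.3 CPM in the knockdown and 34.2, 26.2 and 18.8 in the controls (log2 fold change 0.09, SE 0.47). SAMHD1, which depletes nucleotides, changed by 0.18 (SE 0.30), and IFITM2 by 0.34 (SE 0.48), or by 0.05 without knockdown replicate 1. The length-normalized values (TPM) have to be read with their counts. IFITM1 had a mean of 287 TPM, behind TRIM22 at 463 and ahead of MX1 at 225, XAF1 at 103 and MX2 at 95.6, but this rested on 37 counts over all 6 samples, 70.8% of them on an annotated transcript of 80 bases. For TRIM22, 423 of the 463 TPM were on a transcript of 508 bases, and XAF1 held more counts (1996 against 1509). For MX1, 93.4 of the 225 TPM were on a transcript of 388 bases. BST2, the tetherin gene, had 12 counts in all. IFITM1, IFITM2 and IFITM3 are close paralogs, and the split of reads among them is uncertain.

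ISG15 (chr1:1001138-1014540), a ubiquitin-like protein and one of the strongest interferon responders, had 0 counts in all 3 knockdown samples and 0, 1 and 3 in the controls. Its conjugation enzyme UBE2L6 and its protease USP18 were below the filter too, with at most 11 and 3 counts. HERC5, the ligase for ISG15, had 21.9, 17.6 and 31.6 CPM in the knockdown and 22.8, 22.3 and 21.8 in the controls (log2 fold change 0.08, SE 0.24). HERC6 changed by 0.20 (SE 0.49). TRIM25, which activates RIG-I, had 17.2, 18.9 and 25.3 CPM in the knockdown and 40.4, 14.4 and 25.9 in the controls. The lower mean of TRIM25 in the knockdown came from non-targeting replicate 1, and the log2 fold change of -0.41 (SE 0.44) became -0.0003 without it. The ADP-ribosylation genes PARP9, PARP14 and DTX3L changed by 0.17 (SE 0.29), -0.19 (SE 0.58) and 0.02 (SE 0.09).

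Both tested genes of antigen presentation in the group had lower means in the knockdown, and neither passed the test. Of 11 further antigen presentation genes tested outside the group, 7 log2 fold changes were above and 4 below 0, with a median of 0.03. B2M, the light chain of MHC class I, had 23.3, 37.1 and 29.5 CPM in the knockdown and 39.9, 32.1 and 43.5 in the controls. The means were 29.96 ± 6.96 and 38.5 ± 5.85 CPM (SD, n = 3 each), with a log2 fold change of -0.38 (SE 0.23), or -0.20 without knockdown replicate 1. TAP1 (chr6:32845209-32853816), which carries peptides to class I molecules, had 1.40, 6.08 and 21.8 CPM in the knockdown and 11.96, 34.0 and 11.8 in the controls. The knockdown samples of TAP1 differed among themselves by more than the group means of 9.74 ± 10.7 and 19.3 ± 12.8 CPM (SD, n = 3 each), and the log2 fold change was -1.0 (SE 1.03, adjusted p = 1 by edgeR's exact test). Without knockdown replicate 3 the log2 fold change became -2.42, without non-targeting replicate 2 it became -0.30, and without knockdown replicate 1 it became -0.46. HLA-B held at most 6 counts and HLA-C 0 in all 6 samples. HLA genes share long stretches of sequence, and transcripts outside the annotation, with 4.78% to 6.38% of the counts, could not be matched to gene names, so that counts assigned to other copies of these genes are not included.

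The counts of many of these genes lay on transcripts that the annotation does not class as protein coding. Over the 53 genes, 24.4% of the counts were on retained-intron transcripts, which keep an intron of the gene, compared with 12% over all genes, and such transcripts were 28.4% and 17.2% of those listed. For 13 of the 52 genes with a count, retained-intron transcripts held over 50% of it. The share was 97.7% for MX2, 96.3% for IRF9, 87.5% for IRF7, 75.4% for B2M, 74.8% for TAP1 and 69.6% for ADAR. For B2M the protein-coding transcripts held 0.40% of the counts. For STAT2, 98.2% of the counts were on transcripts without a defined coding sequence. By contrast, the counts of MAVS, EIF2AK2, IFIT1, RIGI, SAMHD1 and DTX3L lay on protein-coding transcripts.

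**Figure D4:**
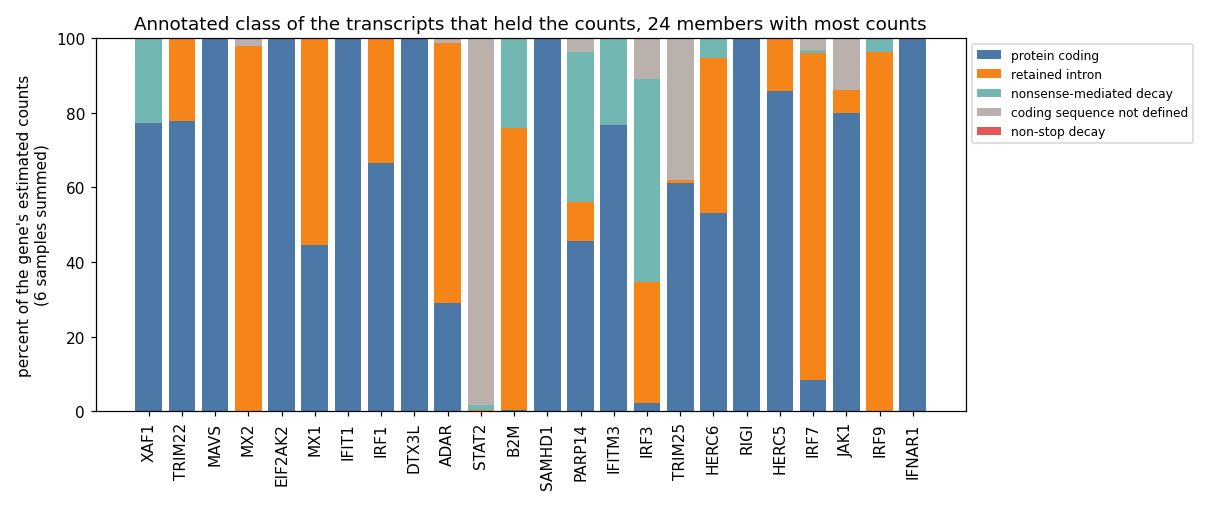
Share of each gene's estimated counts (percent, 6 samples summed) by the annotated class of transcript, for the 24 interferon genes with most counts. Retained-intron transcripts held 97.7% of MX2, 96.3% of IRF9 and 75.4% of B2M, while MAVS, EIF2AK2 and IFIT1 were all on protein-coding transcripts.

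Repeated sequence was common in the transcripts that held the counts. A stretch of 31 bases was called multi-copy if it occurred, on either strand, in the transcripts of at least 10 genes. Of the counts of the 38 tested genes, 70.9% were on transcripts with at least 1 such stretch, compared with 65.9% of the counts of all tested genes. The leading XAF1 transcript, ENST00000361842, held 77.3% of that gene's counts, and 1.71% of its stretches were multi-copy. For IRF1, 65.3% of the counts were on a transcript with 9.0% multi-copy stretches, and the transcripts with most counts of IFIT1, HERC5 and TRIM25 held none. The OAS1 transcript ENST00000551241, with 88.8% of that gene's counts, had 2.35% multi-copy stretches. The next OAS1 transcript held 8.15 counts over the 6 samples, so that too few remained to follow the OAS1 change without ENST00000551241. When only transcripts without a multi-copy stretch were counted, 18 of the 53 genes passed the filter, and 0 were called in either direction.

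Opposite-strand neighbors were looked at because the strand setting is not stated. Of the 53 genes, 20 (37.7%) shared at least 50 exon bases with an annotated gene on the other strand, compared with 21.6% of all genes in the files. These 20 had 23 such partners, of which 11 had a transcript in the files and 7 were tested. LIPA, opposite exons of IFIT2 and IFIT3, had 374, 276 and 551 counts in the knockdown and 405, 270 and 382 in the controls. TLDC2, opposite SAMHD1, had 127, 50 and 209 counts in the knockdown and 102, 48 and 55 in the controls (log2 fold change 0.97, SE 0.67). IRF1-AS1, opposite IRF1 over 2805 bases, had 124, 79 and 75 counts in the knockdown and 80, 86 and 65 in the controls. DTX3L and PARP9 are partners of each other over 139 bases. ARL14EPP1, opposite EIF2AK2, and DGKE, opposite TRIM25, changed by 0.38 (SE 0.35) and 0.14 (SE 0.10). None of the 7 passed the test, with an adjusted p of 1 each by edgeR's exact test.

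Other genes of the pathway gave a similar picture. Of 137 further ligands, receptors, signaling proteins and interferon-stimulated genes, 74 passed the filter, and 0 were called lower and 0 higher by edgeR's exact test, with 1 (TYMP) at an unadjusted p below 0.05. Their median log2 fold change was 0.04, with 44 above and 30 below 0, compared with 5977 above and 5837 below over all tested genes. For 3 of the 74 (RNF125, TLR7 and TYMP) all knockdown samples lay above the controls, compared with 4.42% of all tested genes. For 0 of the 74 all lay below, compared with 3.56%. Pathway genes below the filter separated in either direction. For example, CMPK2 had 4, 5 and 8 counts in the knockdown and 2, 2 and 0 in the controls. TANK had 2, 3 and 2 counts in the knockdown and 6, 5 and 4 in the controls. TMEM140, TRIM14, PTPN11, TRIM5 and PSMB10, which were among the genes with the highest mean TPM, changed by -0.08 (SE 0.24), -0.09 (SE 0.21), -0.13 (SE 0.13), 0.11 (SE 0.17) and 0.30 (SE 0.16).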

How the data were processed

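Total RNA of 3 DNM3OS knockdown and 3 non-targeting SKOV3 samples was depleted of ribosomal RNA and made into TruSeq stranded libraries. Per the labels and the study's methods, the authors quantified paired reads with kallisto 0.43.0 against Ensembl transcripts of GRCh38. The deposited values per transcript are an estimated count (not normalized), a TPM and an effective length, and neither the strand option nor bias correction is given in the sources used here. These counts were added up by gene with GENCODE release 44, to which 155518 of 173259 transcripts matched, and rounded. Genes passed edgeR's filterByExpr (minimum count 10), were scaled by TMM and compared with edgeR's exact test (edgeR 4.0.16, R 4.3.3) with Benjamini-Hochberg adjustment over 11814 genes; the exact test is the one the study's methods name. A call needed a 2-fold change and an adjusted p below 0.05. CPM values use TMM-scaled library sizes. Standard errors come from the replicates' log2 CPM (prior count 2). Samples were grouped by their titles. No 2 samples looked like 1 library (chi-square per degree of freedom at least 2.18).

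The interferon genes, the pathway list and the motifs were chosen with earlier results of these data known. Named were all tested interferon genes, with full values for the 5 highest by TPM and the 3 largest changes in each direction, the 8 untested ones with most counts, 6 classical markers, and the 6 pathway genes and 6 partners with the highest TPM or counts, except for a pathway gene that is not reported here. The separated pathway genes and interferon ligands were named after their values were seen. Exon overlaps used bedtools 2.31.1. Alternatives were DESeq2 1.42.0, edgeR's quasi-likelihood test, the same blocked by replicate number, RLE scaling, other filters, length-scaled TPM counts, transcripts outside the annotation kept, and each sample left out. Of these fits, only edgeR's exact test was tried on simulated data, with changes larger than the threshold planted in genes with more counts. No gene set test was run.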

Additional observations from a re-analysis of the deposited data

How the results depend on the processing

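No interferon gene was called under any of the 16 alternatives, 2 of which (a covariate for each library's ribosomal protein share, and only transcripts without multi-copy 31-base stretches) were chosen after seeing the data, nor without the minimum fold. At an unadjusted p below 0.05 there was 1 with edgeR's exact test and 1 with its quasi-likelihood test, and over all alternatives 0 (DESeq2, the replicate block, without multi-copy transcripts, without non-targeting replicate 1 or 3) to 3 (without non-targeting replicate 2). The median log2 fold change of the tested interferon genes stayed above 0, between 0.04 (covariate) and 0.19, against 0.12. Their number tested was 18 with only the transcripts without multi-copy stretches, because fewer counts remained. Over all genes, 1 was called lower and 0 higher. The number lower was 0 with the quasi-likelihood test, with the covariate, with DESeq2 and without multi-copy transcripts, 2 without a filter and with the 1 CPM filter, 3 with length-scaled TPM counts and 4 with the transcripts outside the annotation kept, and the number higher was 1 in the last and without multi-copy transcripts. Leaving out single samples gave 0 (without non-targeting replicate 3) to 3 (without knockdown replicate 3) lower and 0 to 1 higher.

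Same-numbered samples did not deviate alike throughout: their deviations from the group means correlated at -0.40, -0.34 and 0.23. With so few samples per group, these values cannot show whether the replicate numbers pair the samples. With the replicate number as a block, 0 interferon genes and 0 genes were called lower and 0 higher, and the median of the interferon genes was 0.11.

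Of 588 recomputed log2 fold changes of single interferon genes, 54 changed sign, none with an adjusted p under 0.49, and the cause was not tested. With the covariate they were 0.24 for ADAR, -0.0076 for IFI35, -0.10 for IFIT1, 0.96 for IFIT5, 0.18 for IFNAR2, -0.49 for IRF7, -0.11 for IRF9, 0.32 for JAK1, -0.088 for MAVS, -0.29 for MX2, -0.12 for RIGI, -0.015 for SAMHD1, -0.0024 for STAT2, -0.32 for TRIM22, 0.23 for TRIM25 and -0.16 for XAF1. With length-scaled TPM counts they were -0.12 for IFNAR1, -0.0082 for MX2 and 0.80 for PARP14, and with only transcripts without multi-copy stretches 0.11 for MX1, -0.26 for MX2 and -0.22 for TRIM22. The ranges on leaving out single samples were -0.39 to 0.10 for ADAR, -0.047 to 0.0899 for DTX3L, -0.16 to 0.24 for HERC5, -0.11 to 0.46 for HERC6, -0.29 to 0.19 for IFI35, -0.033 to 0.24 for IFI44L, -0.044 to 0.87 for IFI6, -1.07 to 0.14 for IFIT5, -0.39 to 0.40 for IFITM3, -0.10 to 0.34 for IFNAR1, -0.38 to 0.44 for IRF7, -0.079 to 0.14 for MAVS, -0.11 to 0.014 for MX1, -0.19 to 0.27 for MX2, -0.12 to 0.65 for OAS2, -0.50 to 0.29 for PARP14, -0.027 to 0.34 for PARP9, -0.077 to 0.43 for RIGI, -0.0025 to 0.46 for SAMHD1, -0.42 to 0.27 for TLR3 and -0.15 to 0.38 for TRIM22.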
